A study of Mus musculus with 12 samples.

Results

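Genes of the B cell receptor complex and the B cell surface were followed in megakaryocytes (MKs) sorted from bone marrow (BM) and spleen. They are Cd79a, Cd79b, Ms4a1, Cd22, Cr2, Fcer2a, Cd72, Blk and Btk, matched by symbol to the Ensembl identifiers of the deposited count table, and they make 9 of its 55536 genes. All 9 were among the 20263 genes that passed the expression filter and were tested. After saline, 7 of the 9 were higher in splenic than in BM MK libraries, with fold changes between 16.4 for Cd79b and 138.7 for Blk. After sepsis, 6 of the 9 were higher in spleen, and Cd72 fell just short of the threshold. Fcer2a and Btk passed the test in neither comparison, and no member passed it between sepsis and saline in either tissue.

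As background, the B cell antigen receptor is a membrane immunoglobulin held together with the signaling chains CD79A and CD79B, whose cytoplasmic tails are phosphorylated by SRC family kinases such as BLK and LYN when antigen binds. The kinases SYK and BTK then carry the signal to phospholipase C gamma 2 through the adaptor BLNK. CD21, the product of Cr2, lowers the threshold for this signal, whereas CD22 and CD72 recruit phosphatases that raise it. MKs, the platelet-forming cells, are not known as carriers of an antigen receptor.

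The 12 libraries came from C57BL/6 mice carrying a Pf4-driven Cre and a tdTomato reporter, Pf4 being a gene of the MK lineage, and every group carried these alleles. Adult mice of both sexes were used in the study, and the sources do not tie an age or sex to any library. MKs were sorted from BM or spleen on day 5 after an injection of saline or of cecal slurry (CS), a suspension of gut contents that causes sepsis, which gave 4 groups by tissue and injection with 3 libraries apiece. Each library was made from 300 cells gated as positive for CD45, tdTomato, CD41 and CD42b and negative for a lineage cocktail that included the B cell form of CD45, B220, and the study also lists CD138 among the markers gated out. A Cre reporter marks any cell in which the recombinase is or was active, so the color records history as well as present Pf4 expression. In such bulk libraries, fewer cells of one type and less RNA per cell cannot be told apart.

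Total counts lay between 7756762 and 27386184 per library, and 3 counts, taken as the limit that a count of 0 allows, corresponded to 0.105 to 0.405 CPM, that is, of a count brought to the same total in every library by TMM factors. Immunoglobulin and T cell receptor genes held 1.04% to 4.23% of the counts in BM libraries and 13% to 30.1% in splenic libraries, where replicate 3 after sepsis had the lowest share and the other 5 libraries had at least 23.5%. Of the sorting markers, Ptprc, which encodes CD45, had 128.1 ± 29.2 CPM in BM and 665.0 ± 131.5 CPM in spleen after saline (SD, n = 3). The labelled cell type was checked on 10 MK genes, whose summed level was between 11636 and 47312 CPM in the 6 BM libraries and between 1207 and 3511 CPM in the 6 splenic libraries. Of these, 3 were called lower in spleen in each comparison, among them Pf4 in both. Pf4 was detected in every library, at 9606 to 30581 CPM in BM and 476.0 to 2439 CPM in spleen, with a log2 fold change of -3.99 after saline (edgeR adjusted p = 0.00197) and -4.81 in sepsis (adjusted p = 0.000336). Itga2b and Gp1ba, the genes of CD41 and CD42b, were at -2.82 and -4.04 after saline and at -1.56 and -2.61 after sepsis, and neither passed the test. Of the genes of the remaining gated-out markers, Cd3e, Itgam and Adgre1 did not pass the test either, and Klrb1c was too low to be tested. B220 is a form of CD45 and could not be told from it by gene. The study describes independent replicates, and the legends of its figures on these data give 3 mice. No source names the animal behind each library or says whether BM and spleen came from the same animals. The p-values therefore measure the spread between these libraries.

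The stretches of genome just before the RefSeq start of 5 members are given so that 4 members called between tissues can be read beside Btk, which was not called. RefSeq windows (GRCm38.p6) of 250 bases before to 50 bases after the start were found for 6 of the 9 members; Cd79b, Ms4a1 and Blk had none. The longest part before the start that lies in no annotated exon is shown 5′ to 3′ on the strand of the gene, with capitals at matches to any of 5 motifs searched on both strands. For Cd22 and Btk, the GENCODE annotation that gave the gene positions has the gene begin further upstream than RefSeq. Their shown stretches therefore lie inside the gene by that annotation, between its exons.
Cd79a (chr7:24897247-24897380, plus strand): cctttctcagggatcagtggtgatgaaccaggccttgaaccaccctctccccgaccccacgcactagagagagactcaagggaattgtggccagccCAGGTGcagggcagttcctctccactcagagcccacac
Cr2 (chr1:195176720-195176969, minus strand): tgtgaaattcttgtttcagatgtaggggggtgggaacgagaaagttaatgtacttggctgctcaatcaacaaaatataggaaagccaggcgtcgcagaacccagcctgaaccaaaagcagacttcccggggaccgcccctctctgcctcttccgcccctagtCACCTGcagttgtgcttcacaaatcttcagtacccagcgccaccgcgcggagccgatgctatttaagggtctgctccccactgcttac
Cd22 (chr7:30879029-30879176, minus strand): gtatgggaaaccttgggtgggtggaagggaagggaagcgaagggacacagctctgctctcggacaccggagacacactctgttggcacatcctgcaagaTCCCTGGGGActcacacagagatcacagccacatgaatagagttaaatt
Cd72 (chr4:43454629-43454876, minus strand): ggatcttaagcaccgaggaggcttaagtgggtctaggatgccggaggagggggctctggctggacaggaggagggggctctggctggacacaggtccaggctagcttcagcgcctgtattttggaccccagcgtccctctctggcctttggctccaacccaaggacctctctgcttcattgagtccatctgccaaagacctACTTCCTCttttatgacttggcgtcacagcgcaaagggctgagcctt
Btk (chrX:134583141-134583390, minus strand): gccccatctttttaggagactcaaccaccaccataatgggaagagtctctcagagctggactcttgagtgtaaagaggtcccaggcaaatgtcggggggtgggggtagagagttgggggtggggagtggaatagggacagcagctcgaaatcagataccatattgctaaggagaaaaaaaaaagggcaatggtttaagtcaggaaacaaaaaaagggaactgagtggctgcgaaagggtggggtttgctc
The motifs were the octamer ATGCAAAT, the EBF motif (TCCC and GGGA parted by any 2 bases), the PU.1-type ETS motif GAGGAAGT, the E2A motif CAGGTG and the GATA motif AGATAA. No matches listed here overlapped one another. Among all 32851 windows of the table, 1.74% held the octamer, 0.904% the EBF motif, 3.20% the ETS motif, 20.2% the E2A motif and 11.2% the GATA motif. Cd79a held the E2A letters beginning at base -154 from its start, and Cr2 held them on the opposite strand at base -88. The capitals in Cd22 mark the EBF letters at base -49, and its window also held the E2A letters on the opposite strand at base -245, in an exonic stretch not shown. Cd72 held the ETS letters on the opposite strand at base -49. Btk held none of the 5, Fcer2a held the E2A letters at 2 places in 1 of its 3 windows, and neither the octamer nor the GATA letters were found in any of the 8 windows of these genes. Such matches describe letters in the genome and say nothing of binding.

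The signaling chains of the receptor were the highest members in spleen per exon length. Cd79a (ENSMUSG00000003379, chromosome 7, 24897381 to 24902197) stood at 85.0, 61.1 and 36.9 CPM in the BM libraries after saline and at 13.1, 6.12 and 7.44 CPM in those after sepsis. In splenic libraries it stood at 1422, 700.4 and 1928 CPM after saline and at 2829, 2525 and 125.3 CPM after sepsis. Every splenic library was above every BM library, but replicate 3 of the splenic sepsis group was far below its companions and close to the BM saline range. The log2 fold change of Cd79a, spleen over BM, was 4.47 after saline (SE 0.83, edgeR adjusted p = 0.00843, from 1.31e-13 to 0.0866 over the alternatives, the highest in limma-voom) and 7.68 in sepsis (SE 0.97, adjusted p = 0.000187).

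Cd79b (ENSMUSG00000040592, chromosome 11, 106311341 to 106314762), the partner chain, stood at 120.6, 59.9 and 79.4 CPM in BM after saline and at 62.0, 23.2 and 56.2 CPM in BM after sepsis. Its splenic values were 1255, 897.6 and 2118 CPM after saline and 3189, 2394 and 1169.9 CPM after sepsis. The 6 splenic libraries were all above the 6 BM libraries, and replicate 3 after sepsis was the lowest of its group here too, yet it remained within the range of the saline group. Cd79b was 16.4-fold higher in spleen after saline (log2 fold change 4.04, SE 0.59, edgeR adjusted p = 0.00146) and 47.7-fold higher after sepsis (5.58, SE 0.63, adjusted p = 8.54e-05).

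**Figure D1:**
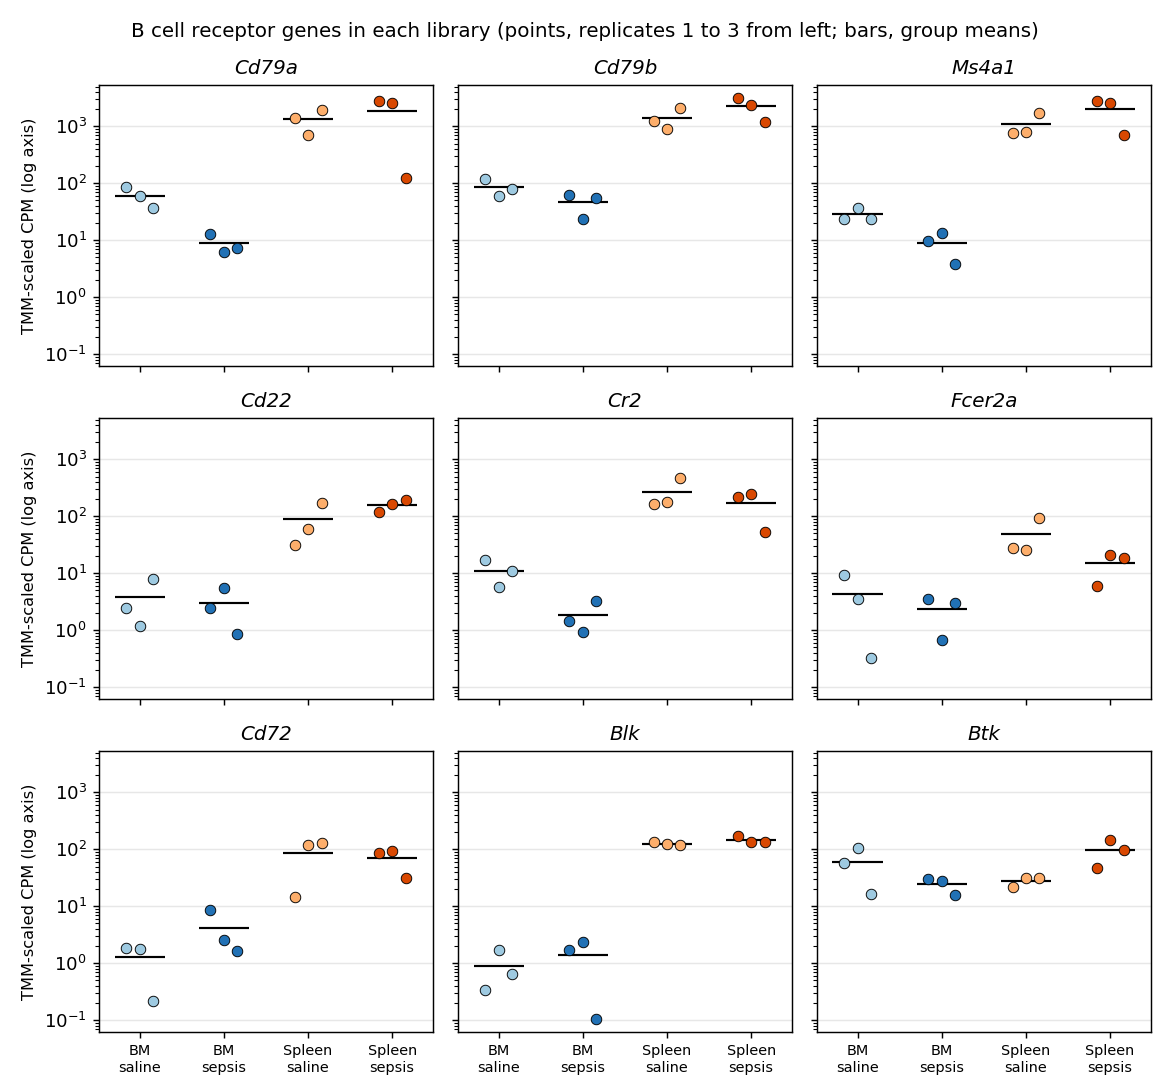
Level of each of the 9 genes in TMM-scaled CPM (vertical, log axis) in the 12 libraries, with points for replicates 1 to 3 of each group from left and bars for group means. In 7 panels all splenic points lie above all BM points, Cd79a of splenic sepsis replicate 3 lies at 125.3 CPM below its 2 companions, and the points of Fcer2a and Btk overlap between tissues.

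Among surface antigens and the coreceptor, Ms4a1 and Cr2 behaved like the signaling chains and Fcer2a did not pass the test. Ms4a1 (ENSMUSG00000024673, chromosome 19, 11249675 to 11266241), which encodes CD20, stood at 23.8, 37.6 and 24.0 CPM in BM after saline and at 9.65, 13.3 and 3.79 CPM in BM after sepsis. Splenic libraries held 780.5, 786.0 and 1738 CPM of it after saline and 2759, 2585 and 703.7 CPM after sepsis. No library of one tissue reached the range of the other, and the lowest splenic value was again that of replicate 3 after sepsis. Its difference, spleen over BM, was 5.27 on the log2 scale after saline (SE 0.68, edgeR adjusted p = 0.000803) and 7.83 in sepsis (SE 0.77, adjusted p = 6.47e-05), which was the smallest adjusted p among the 9 genes.

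Cr2 (ENSMUSG00000026616, chromosome 1, 195136811 to 195176716), whose product CD21 binds complement fragments on antigen, stood at 16.8, 5.67 and 10.9 CPM in BM after saline and at 1.43, 0.935 and 3.30 CPM after sepsis. In spleen it stood at 162.6, 179.2 and 470.8 CPM after saline and at 222.6, 242.5 and 53.0 CPM after sepsis. Tissues were again apart in all libraries, and the BM sepsis libraries were all below the BM saline libraries. Cr2 was 24.3-fold higher in spleen after saline (log2 fold change 4.60, SE 0.80, edgeR adjusted p = 0.00520) and 89.9-fold higher after sepsis (6.49, SE 0.87, adjusted p = 0.000341).

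Fcer2a (ENSMUSG00000005540, chromosome 8, 3681737 to 3694175) encodes CD23, the low-affinity receptor for IgE. It stood at 9.45, 3.48 and 0.323 CPM in BM after saline, the last resting on 3 counts, and at 3.59, 0.680 and 2.95 CPM after sepsis. Splenic values were 28.0, 25.4 and 93.0 CPM after saline and 5.96, 20.6 and 18.8 CPM after sepsis. Within each treatment the tissues did not overlap, but the lowest splenic library after sepsis lay under the highest BM library after saline. Its log2 fold changes of 3.46 after saline (SE 1.23, edgeR adjusted p = 0.258) and 2.64 in sepsis (SE 1.19, adjusted p = 0.375) did not pass the test, and only DESeq2 called it after saline (adjusted p = 0.0118, the lowest of a range up to 0.556).

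The inhibitory members Cd22 and Cd72 were low in BM and rested there on few reads. Cd22 (ENSMUSG00000030577, chromosome 7, 30865402 to 30880342), a sialic acid binding lectin, had 12 to 73 counts per BM library, which gave 2.41, 1.19 and 7.86 CPM after saline and 2.48, 5.61 and 0.842 CPM after sepsis. In spleen it stood at 31.0, 59.4 and 174.4 CPM after saline and at 119.6, 165.5 and 193.0 CPM after sepsis. The tissues did not overlap, and replicate 3 of the splenic sepsis group, the lowest for the signaling chains, Ms4a1 and Cr2 within its group, had the highest Cd22 value of all 12 libraries. The log2 fold change of Cd22, spleen over BM, was 4.53 after saline (SE 0.94, edgeR adjusted p = 0.0189) and 5.75 in sepsis (SE 1.0, adjusted p = 0.00363), and the first was lost in limma-voom (adjusted p = 0.0541), with the 6 libraries alone (0.0773) and without replicate 1 of the BM saline group (0.0598).

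Cd72 (ENSMUSG00000028459, chromosome 4, 43446462 to 43454628), a C-type lectin, stood at 1.89, 1.79 and 0.215 CPM in BM after saline, with 2 to 22 counts, and at 8.54, 2.55 and 1.65 CPM after sepsis. Splenic libraries held 14.3, 117.8 and 129.7 CPM after saline and 85.3, 93.2 and 31.1 CPM after sepsis. Splenic replicate 1 after saline was low among its group, but it still lay above the highest BM value. Cd72 was 66.4-fold higher in spleen after saline (log2 fold change 6.05, SE 1.14, edgeR adjusted p = 0.00936; 0.0513 in limma-voom). After sepsis its log2 fold change of 4.04 (SE 1.03) had an adjusted p of 0.0509 and was not called, while over the alternatives that p ranged from 0.000277 to 0.177. Tesk1, on the opposite strand, shares 41.6% of the exonic bases of Cd72, and Gm29439, also on the opposite strand, shares 9.5% of those of Cd22, but Tesk1 was counted at most 2 times in any library outside the splenic sepsis group (at most 27 there) and Gm29439 in none.

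The kinases Blk and Btk, which act one after the other in the receptor pathway, had the highest and the lowest log2 fold change of the 9 genes between tissues after saline. After sepsis Btk was again the lowest, and Ms4a1 and Cd79a were above Blk. Blk (ENSMUSG00000014453, chromosome 14, 63372836 to 63417037) is the SRC family kinase named for B lymphocytes. It stood at 0.344, 1.69 and 0.646 CPM in BM after saline and at 1.70, 2.38 and 0.105 CPM after sepsis, from 3 to 28 counts per library. The splenic values were 134.1, 122.4 and 117.9 CPM after saline and 173.0, 132.6 and 133.1 CPM after sepsis. All 6 splenic libraries lay close together, with a coefficient of variation of 14.4%, whereas that of the other 8 genes over the same libraries was between 48.0% for Cd79b and 96.5% for Fcer2a. Blk was 138.7-fold higher in spleen after saline (log2 fold change 7.12, SE 1.02, edgeR adjusted p = 0.00139) and 106.2-fold higher after sepsis (6.73, SE 1.0, adjusted p = 0.000908).

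Btk (ENSMUSG00000031264, chromosome X, 134542336 to 134583570), which is also used in myeloid cells and platelets, stood at 56.7, 106.2 and 16.8 CPM in BM after saline and at 30.0, 28.1 and 16.1 CPM after sepsis. In spleen it stood at 22.2, 31.0 and 31.0 CPM after saline and at 48.0, 144.4 and 98.2 CPM after sepsis. After saline the tissues overlapped, and after sepsis the 3 splenic libraries lay above the 3 BM libraries. Btk had a log2 fold change, spleen over BM, of -1.09 after saline (SE 0.72, edgeR adjusted p = 0.541) and of 1.97 in sepsis (SE 0.74, adjusted p = 0.279), the second of which was called by DESeq2 alone (adjusted p = 0.0426, the lowest of a range up to 0.578).

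Over the whole list, 7 of 9 genes were called higher in spleen after saline, where 0.725% of all tested genes were, and 6 of 9 after sepsis, where 1.18% of all tested genes were. The median log2 fold change of the 9 was 4.53 after saline and 5.75 after sepsis, beside 0.28 and 0.18 for all tested genes. Splenic libraries lay above BM libraries without overlap for 8 of the 9 genes after saline (7.0% of all tested genes) and for 9 of 9 after sepsis (7.02%). When the 6 splenic libraries were set against the 6 BM libraries, 7 of 9 were apart, against 1.87% of all tested genes. The MK genes were lower in these same splenic libraries and immunoglobulin genes higher, with the values given above, and the part of the cells' makeup in the difference was not tested.

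**Figure D2:**
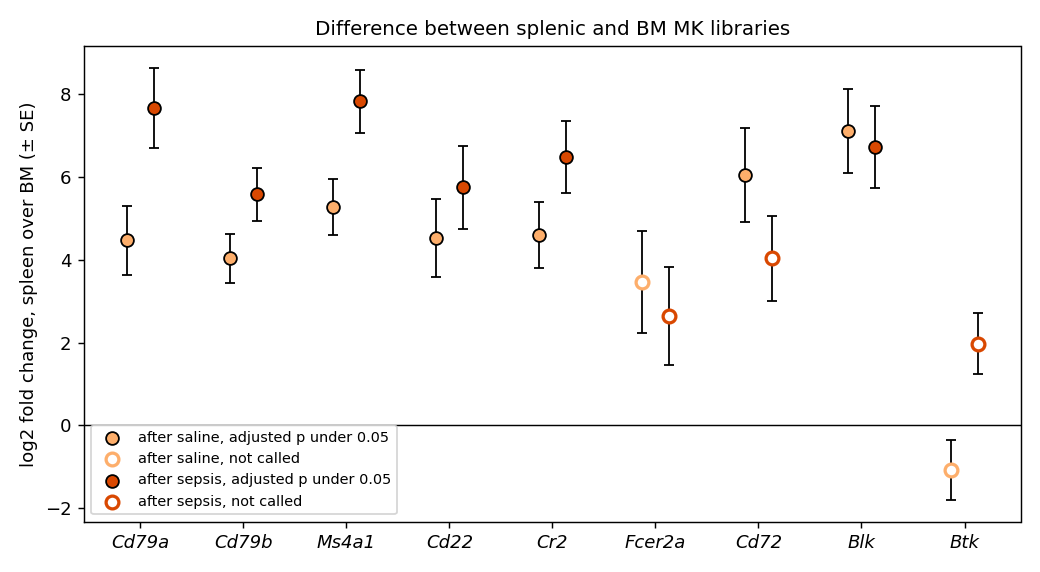
Log2 fold change, spleen over BM (vertical), of each gene after saline and after sepsis, with bars of ± 1 SE from edgeR, filled where the adjusted p was under 0.05 and open where it was not. The filled points lie between 4.04 and 7.83, and the open points are Fcer2a and Btk in both comparisons and Cd72 after sepsis.

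Sepsis was next compared with saline within each tissue. In BM, 3 members had sepsis libraries that were all below the saline libraries. Cd79a had a log2 fold change, sepsis over saline, of -2.78 (SE 0.77, unadjusted p = 0.00190 in edgeR), Cr2 of -2.54 (SE 0.73, unadjusted p = 0.00261) and Ms4a1 of -1.68 (SE 0.59, unadjusted p = 0.0101), and for each the p adjusted over all genes was 1.0. The groups were apart in that direction for 4.16% of all tested genes. Cd79b was at -0.88 (SE 0.53) with overlapping libraries, and the remaining 5 members lay between -1.28 for Btk and 1.69 for Cd72, also overlapping.

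No member and no gene (0%) passed the edgeR test between sepsis and saline in BM, where 717 of 20263 genes (3.54%) had an unadjusted p under 0.05, limma-voom called 0 genes and DESeq2 called 206. DESeq2 called Cd79a (adjusted p = 0.0229) and Cr2 (adjusted p = 0.0267) lower after sepsis. Without an expression filter, or without replicate 3 of the splenic sepsis group, edgeR also called Cd79a (adjusted p = 3.6e-05 and 0.0432, in a range from 3.6e-05 to 1.0). The fit without that replicate also ran the filter anew, with 25900 genes tested. Summed over the 9 genes, the level was 177.0 to 317.1 CPM in BM after saline and 82.8 to 132.5 CPM in BM after sepsis.

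In spleen, edgeR called no member between treatments and 0.158% of all tested genes (32), and DESeq2 and limma-voom called no member either. Among the 9, only Btk had an unadjusted p under 0.05, as did 2649 of all 20263 tested genes. Btk, at 48.0 to 144.4 CPM after sepsis and 22.2 to 31.0 CPM after saline, had the largest log2 fold change (1.79, SE 0.73, unadjusted p = 0.0248, adjusted p = 0.382), and its groups were apart, as were those of 4.95% of all tested genes. Fcer2a was lower in all 3 sepsis libraries (log2 fold change -1.69, SE 1.15, adjusted p = 0.561), as were 4.51% of all tested genes without overlap. The remaining 7 genes overlapped between treatments, with log2 fold changes between -0.65 for Cr2 and 0.87 for Ms4a1. The summed level of the 9 genes was 2919 to 6801 CPM after saline and 2526 to 9432 CPM after sepsis.

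The tissue by sepsis interaction asked whether the difference between tissues was itself different after sepsis. It was called for no member and for no gene (0%) in edgeR, with 1556 of 20263 genes (7.68%) at an unadjusted p under 0.05, 0 genes in limma-voom and 495 in DESeq2. Cd79a had an interaction of 3.21 on the log2 scale (SE 1.05), Ms4a1 of 2.55 (SE 0.82) and Btk of 3.06 (SE 1.03), each with an unadjusted p under 0.05 (0.00620, 0.00573 and 0.00773) and an adjusted p of 0.543. For Cd79a that value became 3.77 with an adjusted p of 0.00587 when splenic sepsis replicate 3 was left out, and 3.22 with an adjusted p of 0.00117 without an expression filter, in a range from 0.00117 to 0.981 over the alternatives. Ms4a1 was called without the filter as well (2.57, adjusted p = 0.0480). The fit without splenic sepsis replicate 3 ran the filter anew, with 25900 genes tested. The part of the filter in the Cd79a call there was not tested.

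Levels were compared between genes only after division by exon length, as CPM per kilobase of all annotated exon bases. In spleen after saline the order was led by Cd79b (994.7 ± 438.5 CPM per kilobase, SD, n = 3) and Cd79a (926.6 ± 423.4), whose ranges overlapped, followed by Ms4a1 (178.0 ± 89.1) and Blk (46.2 ± 3.10), each with its range below that of the gene before it. The ranges of the next neighbors, Cr2, Cd72, Cd22, Fcer2a and Btk, overlapped from one to the next, with means from 33.4 down to 8.91 CPM per kilobase. After sepsis the order in spleen began with the same 4 genes, and the range of Ms4a1 overlapped that of Cd79a because of the low Cd79a level in replicate 3.

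BM libraries had another order of levels. After saline it was Cd79b (60.6 ± 21.7 CPM per kilobase), Cd79a (41.9 ± 16.5), Btk (19 ± 14.2) and Ms4a1 (4.60 ± 1.28), with each range overlapping the next, and the other 5 began below the range of Ms4a1 and had means between 0.331 and 1.43 CPM per kilobase. After sepsis Cd79b (32.9 ± 14.6) was above all others without overlap, and Btk (7.85 ± 2.40) and Cd79a (6.10 ± 2.55) overlapped. Blk, next after Ms4a1 in spleen, was at the bottom in BM after saline and next to last after sepsis.

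Ratios of reads within a library do not depend on its scaling, and those given here were chosen after the values were seen. Cd79a had 0.780 to 1.13 reads per read of Cd79b in 5 of the 6 splenic libraries and 0.107 in splenic sepsis replicate 3. In BM the ratio was 0.704, 1.02 and 0.465 after saline and 0.211, 0.264 and 0.132 after sepsis. The 3 BM sepsis libraries and that splenic library stood below the other 8, and the signaling chains, which are needed in equal parts in the receptor, were not counted in equal parts there. Splenic sepsis replicate 3 had 1291 reads of Cd79a and 12055 of Cd79b, so the ratio there did not rest on few reads.

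The ratio of the kinases separated the tissues. Blk had 0.00606 to 0.0848 reads per read of Btk in BM and 0.918 to 6.05 in spleen, without overlap, and the 3 splenic sepsis libraries were all below the 3 splenic saline libraries. Cr2 had 5.06 to 7.05 reads per read of Fcer2a in spleen after saline and 37.3, 11.8 and 2.81 after sepsis. In BM that ratio was 33.7 in replicate 3 after saline, from 3 reads of Fcer2a, and between 0.400 and 1.78 in the other 5 libraries.

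**Figure D3:**
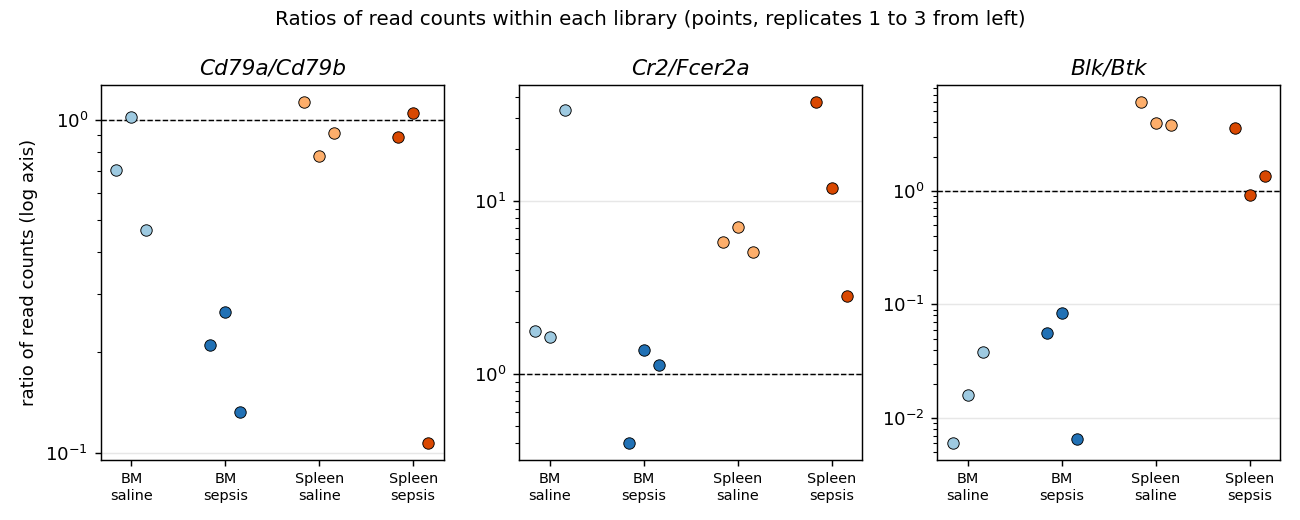
Ratio of read counts (vertical, log axis) of Cd79a to Cd79b, Cr2 to Fcer2a and Blk to Btk in each library, with points for replicates 1 to 3 of each group from left and a dashed line at equal counts. The Cd79a to Cd79b ratio of splenic sepsis replicate 3 lies at 0.107, and the Blk to Btk ratio lies under 0.1 in every BM library and above 0.9 in every splenic library.

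The splenic library with little Cd79a stood apart in other respects as well, in genes chosen after their values were seen. Splenic sepsis replicate 3 had 13% of its counts on immunoglobulin and T cell receptor genes, 320.5 CPM of the MK integrin gene Itga2b and 587.9 CPM of Syk, the highest Itga2b and Syk values among splenic libraries. It also had 63.3 CPM of Rag1 and 21.9 CPM of Rag2, the recombinase genes of lymphocyte precursors, where no other library exceeded 4.77 and 3.28 CPM. Cd79a made 4.96% of the summed level of the 9 genes there and 24.0% to 36.9% in the other splenic libraries, while Cd79b made 46.3%. Without this library the number of members called after sepsis was 7, with Cd72 added (log2 fold change 4.37, edgeR adjusted p = 0.0201). That fit also ran the expression filter anew, and Cd72 was called without a filter as well (edgeR adjusted p = 0.0165).

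Other genes of the receptor pathway were taken from lists. Among 11 further coreceptor and surface antigen genes, 6 were called higher in spleen after saline and 7 after sepsis, none lower, with a median log2 fold change of 4.57 and 3.80. Cd24a, a surface antigen gene, was called in both (3.74, edgeR adjusted p = 0.0112, and 3.05, adjusted p = 0.0260). Cd37, a tetraspanin, had 2.05 after saline (adjusted p = 0.0869) and was called after sepsis (3.59, adjusted p = 0.00221), with an adjusted p of 0.654 for the difference of these values. Cd81, a tetraspanin that many cell types carry, was at -0.04 after saline (adjusted p = 0.997) and at 0.66 in sepsis (adjusted p = 0.709).

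Signaling genes downstream of the receptor came next. Of 18, 3 were called higher in spleen after saline and 4 after sepsis and none lower, with medians of 1.40 and 1.79. The called genes were the adaptors Blnk and Bank1 and the kinase Prkcb in both comparisons, and Rasgrp3, an activator of RAS proteins, after sepsis. Blnk, which couples SYK to phospholipase C gamma 2, had 4.61 ± 3.25 CPM in BM and 226.6 ± 39.6 CPM in spleen after saline (SD, n = 3) and a log2 fold change of 5.62 (edgeR adjusted p = 0.00115). Its value after sepsis was 7.01 (adjusted p = 0.000129).

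The other signaling genes named by the rule, all of which further blood cells use, did not pass the test. Syk was at -0.14 on the log2 scale, spleen over BM, after saline (adjusted p = 0.968), and at 1.78 in sepsis (adjusted p = 0.218). Lyn, the SRC family kinase shared with myeloid cells, was at 0.90 (adjusted p = 0.515) and 1.53 (adjusted p = 0.290). Plcg2, which MKs and platelets use for collagen signaling, was at -0.15 (adjusted p = 0.964) and 0.65 (adjusted p = 0.698).

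A list of 8 further inhibitory genes gave 2 calls after saline and 3 after sepsis, all higher in spleen, with medians of 2.53 and 2.45. Siglecg, a lectin related to Cd22, was called in both (log2 fold change 3.75, edgeR adjusted p = 0.0238, and 8.14, adjusted p = 0.000182), as was Fcrl5 (5.47 and 6.47). Fcgr2b, the inhibitory receptor for IgG, was called after sepsis (2.84, adjusted p = 0.0147) and had 2.07 after saline (adjusted p = 0.102). The phosphatase genes Ptpn6 and Inpp5d, which encode SHP-1 and SHIP-1, did not pass the test. Ptpn6 was at 2.48 after saline (adjusted p = 0.0897) and at 1.89 in sepsis (adjusted p = 0.236), and Inpp5d was at 0.56 (adjusted p = 0.825) and 0.63 (adjusted p = 0.754).

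The 19 paralogs of the members, such as other SRC and TEC family kinases, sialic acid binding lectins and MS4A genes, served as a comparison within the families. The kinase genes Fgr, Lck and Fyn were at 0.48, 2.96 and -0.71 after saline and at 3.05, 3.20 and -1.69 after sepsis, and none passed the test. Ms4a3, a gene of granulocyte precursors, was called lower in spleen in both comparisons, at -4.67 after saline (adjusted p = 0.00942) and at -6.81 in sepsis (adjusted p = 0.000607). Ms4a2, which encodes the beta chain of the high-affinity IgE receptor of mast cells and basophils, was called lower in spleen after sepsis (-3.84, adjusted p = 0.0328). Ms4a2 was also called lower after sepsis than after saline within spleen (-5.07, adjusted p = 0.0400), from 270.8 ± 274.9 CPM to 8.05 ± 7.79 CPM (SD, n = 3), with 47.6 CPM as the lowest saline and 17 CPM as the highest sepsis library. The median over the paralogs was 1.26 after saline and 0.42 after sepsis.

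**Figure D4:**
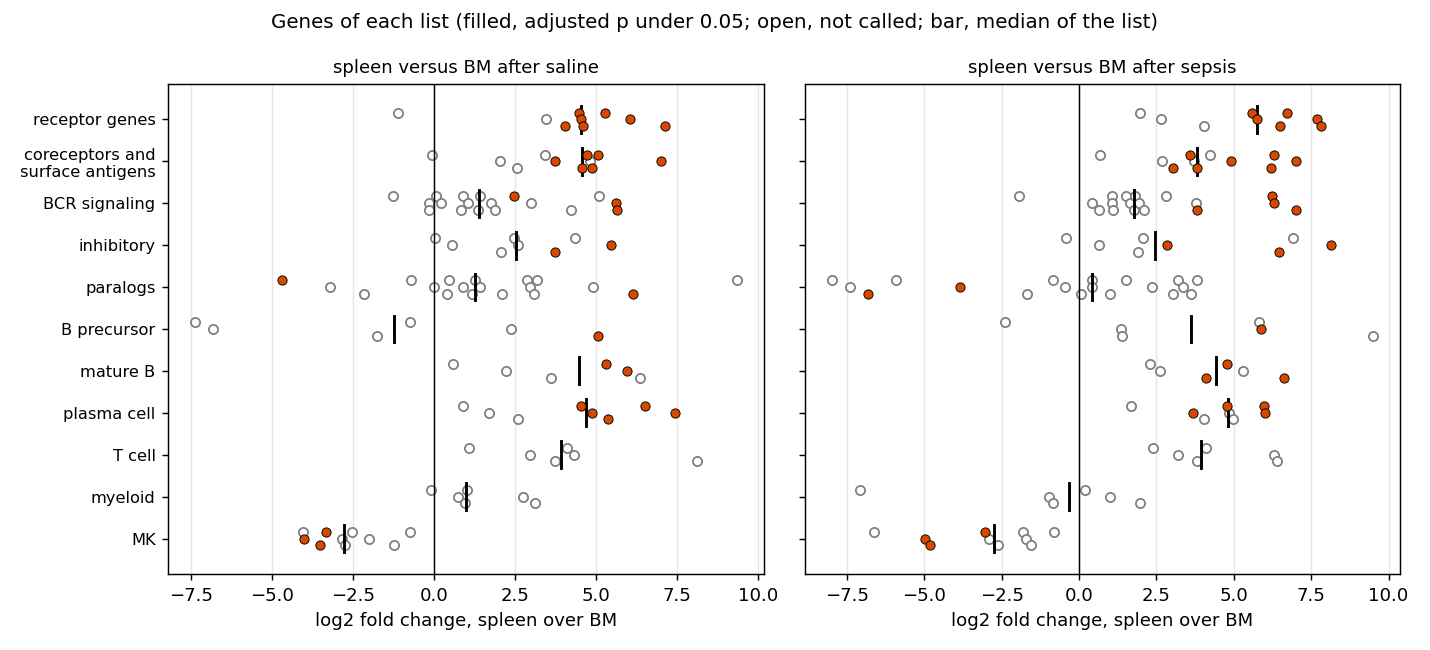
Log2 fold change, spleen over BM (horizontal), of every tested gene of the lists named on the vertical axis, after saline (left) and after sepsis (right), with filled points for an adjusted p under 0.05 in edgeR, open points otherwise and a bar at the median of each list. The bar of the receptor genes lies at 4.53 and 5.75, that of the MK genes at -2.78 and -2.77, and filled points left of 0 are MK genes and paralogs.

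Markers of other cell types were measured in the same libraries, and their part in the receptor gene values was not tested. Genes of the naive and mature B cell stage moved with the 9 genes: their summed level over 6 genes was 140.7 to 951.3 CPM in BM and 14189 to 45024 CPM in spleen, with Ighm (log2 fold change 5.96 after saline and 6.62 after sepsis) and Ighd (5.32 and 4.10) called in both comparisons and Dtx1 after sepsis. Ighm alone made 13313 to 44075 CPM of that sum in spleen. The summed level of 8 plasma cell genes was 1485 to 4697 CPM in BM and 7761 to 80835 CPM in spleen. Jchain alone made 1344 to 4603 CPM of it in BM and 6552 to 80009 CPM in spleen. Of the 8 genes, 5 were called higher after saline and 4 after sepsis, among them Jchain and Mzb1 in both. Sdc1, which encodes the gated-out CD138, was not called (log2 fold change 0.90, edgeR adjusted p = 0.895, and 4.98, adjusted p = 0.271). It stood at 119.3 CPM in splenic sepsis replicate 3 and at no more than 14.3 CPM in any other library. Jchain, Mzb1 and Tnfrsf17 had their lowest splenic values in that replicate.

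B cell precursor genes had a summed level over 9 genes of 55.9 to 126.9 CPM in BM and 187.9 to 407.8 CPM in spleen. Dntt was at 0 in all 12 libraries, Igll1 was at 0 in 11 of them, and these and Vpreb2 did not pass the expression filter. Vpreb3, which mature B cells also express, was called higher in spleen (log2 fold change 5.07, edgeR adjusted p = 0.0264 after saline and 5.88, adjusted p = 0.00944 after sepsis), and the other 5 tested genes were not called.

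No T cell, myeloid, dendritic cell or NK cell marker was called between tissues. The summed level of 6 T cell genes was 6.21 to 85.5 CPM in BM and 125.2 to 1602 CPM in spleen, and that of 6 myeloid genes was 317.7 to 978.9 CPM in BM and 93.8 to 1869 CPM in spleen. The summed level of 6 dendritic cell genes was at most 21.4 CPM in BM and 143.1 CPM in spleen, and that of the NK cell genes Klrb1c and Ncr1 at most 8.35 and 35.5 CPM. Of 5 genes of follicular dendritic cells, stromal cells that carry CD21 and CD23 themselves, 3 were tested and none called, and Cxcl13 was at 0 in all 6 splenic libraries.

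The genes most like Cd79a over the 12 libraries, by Pearson correlation of log2 CPM and leaving out the 9 genes and the immunoglobulin and T cell receptor genes, were Cd74 (r = 0.975), Ly6d (r = 0.971), Gm15848 (r = 0.970), H2-Ab1 (r = 0.967) and H2-Aa (r = 0.964). The 12 points come from 2 tissues, so these values mix that contrast with differences between libraries of a group. With the group means taken out, r with Cd79a was 0.822 for Cd74, 0.972 for Ly6d and 0.929 for Gm15848. It was 0.871 for H2-Ab1 and 0.741 for H2-Aa. These genes were picked by their r over the same libraries. Cd74, the invariant chain of MHC class II, had means of 282.9 and 81.4 CPM in BM after saline and sepsis and of 11210 and 13855 CPM in spleen. Ly6d, a marker of B lineage commitment, had means of 89.6 and 59.4 CPM in BM and of 3443 and 4057 CPM in spleen, and H2-Ab1 and H2-Aa encode the chains of the class II molecule I-A. Gm15848, annotated as antisense, had a mean of at most 16.6 CPM in any group. Among the members themselves, r with Cd79a was 0.967 for Cr2, 0.950 for Ms4a1, 0.944 for Cd79b, 0.855 for Blk, 0.810 for Cd22, 0.788 for Cd72, 0.748 for Fcer2a and 0.341 for Btk. Without the group means it was 0.708 for Cr2, 0.713 for Ms4a1, 0.739 for Cd79b and 0.444 for Cd72. For Fcer2a, Blk, Btk and Cd22 it was then 0.158, 0.052, 0.051 and -0.159.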

How the data were processed

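RNA from 300 sorted MKs per library was amplified with SMART-Seq HT and sequenced after Nextera XT preparation. The authors deposited raw counts per Ensembl gene for 12 libraries. The submitters' processing notes name STAR 2.7.2b, R 3.6.1, DESeq2 1.26 and the build GRCm38; no source used here gives the annotation release, counting options or strand setting. Positions and exon lengths were read from GENCODE M21, which holds all 55536 identifiers.

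Counts were filtered with filterByExpr (minimum count 10), scaled with TMM factors (0.713 to 1.43) and fitted in edgeR 4.0.16 (R 4.3.3) with 1 mean per group, 8 residual degrees of freedom and the quasi-likelihood F test. Benjamini-Hochberg adjustment ran over all 20263 genes with a threshold of 0.05. SEs are the fold change divided by the root of F. The biological coefficient of variation was 143%, and total counts of 7756762 to 27386184 and the limit of 3 counts cover counting error only. Alternatives were RLE factors, library size alone, no filter, a stricter filter, DESeq2 1.42.0, limma-voom with quality weights (limma 3.58.1), the 6 libraries of a comparison alone, a replicate block, a table without its 700 immunoglobulin and T cell receptor genes, and each library left out. Each fit with a library left out ran the expression filter anew and tested 23354 to 26112 genes. The procedure was tested on simulated data. Python 3.11.15 with pandas 2.3.3 handled the tables, and matplotlib 3.10.9 drew the plots.

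The members and lists were chosen with earlier results of these data known. Named were all 9 members, the first 4 genes of each pathway list, genes of these lists called between treatments, the sorting genes and the 5 genes most like Cd79a; other names were chosen after their values were seen. The octamer and EBF motifs were part of the rule, and the ETS, E2A and GATA motifs were added. Protein motifs were not analysed here, and some genes named by this rule are not reported here.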

Additional observations from a re-analysis of the deposited data

How the results depend on the processing

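The number of members called higher in spleen after saline was 7, and it was 4 in limma-voom and 6 to 7 with 1 library left out. After sepsis it was 6, and 6 to 7 with 1 library left out. Between treatments in BM it was 0, but 1 without an expression filter, 2 in DESeq2 and 0 to 1 with 1 library left out, the 1 arising without splenic sepsis replicate 3. For the interaction it was 0, but 2 without a filter and 0 to 1 with 1 library left out, again without that replicate. In spleen between treatments it was 0 to 0 with 1 library left out. The causes were not tested.

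Cd72 after sepsis was called under RLE factors (adjusted p = 0.0422), no filter (0.0165), the stricter filter (0.0458), DESeq2 (0.000277), limma-voom (0.0169) and 8 of the fits with 1 library left out. Signs turned only where no call was made. In BM between treatments, leaving out 1 library gave -1.19 to 0.73 for Cd22 (0.73 and 0.09 without saline or sepsis replicate 3), -1.39 to 0.35 for Fcer2a (0.35 without saline replicate 1) and -0.00413 to 1.48 for Blk (-0.00413 without sepsis replicate 2), and limma-voom gave 0.15 for Fcer2a and -0.19 for Blk. In spleen it gave -0.91 to 0.05 for Cr2 (0.05 without saline replicate 3) and -0.73 to 0.14 for Cd72 (0.14 without saline and 0.08 without sepsis replicate 3), and limma-voom gave 0.36 for Cd72. In the interaction it gave -2.03 to 0.05 for Fcer2a (0.05 without splenic saline replicate 3) and -1.19 to 0.27 for Blk (0.27 without BM sepsis replicate 2, 0.03 without BM saline replicate 1), and limma-voom gave 0.46 for Blk.

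The number of genes called was 253 after saline (529 without a filter, 1312 in DESeq2, 197 to 467 with 1 library left out) and 361 after sepsis (595, 1472 and 307 to 512, with 724 in limma-voom). In BM it was 0 (81 without a filter, 206 in DESeq2, 0 to 12 with 1 library left out). In spleen it was 32 (187, 986 and 48 to 138, with 20 under the stricter filter and 0 in limma-voom and with 6 libraries alone), and for the interaction 0 (130, 495 and 3 to 48). The median log2 fold change of all genes moved from 0.28 to 0.544 under RLE and -0.205 with library size alone after saline, and from 0.18 to 0.303 and -0.342 after sepsis. Higher against lower calls were 147 and 106 under TMM after saline, 182 and 79 under RLE, and 114 and 262 with library size alone. After sepsis they were 240 and 121, 268 and 110, and 166 and 214.

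The replicate numbers did not show a pairing: deviations of same-numbered libraries correlated at -0.0566 to 0.0447 in 18 pairs and those of others at -0.0736 to 0.0719 in 36. With the replicate block, 288, 401, 0, 33 and 0 genes were called in the 5 comparisons in the order above, and among the members only Cd72 after sepsis changed its call (log2 fold change 4.10, adjusted p = 0.0362). With 3 libraries a group and few reads in BM, the levels of Blk, Cd72, Fcer2a and Cd22 there are the least precise.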
